A study of Mus musculus with 10 samples.

Results

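The regions described are the higher-scoring STAT5A binding sites of wild type mouse mammary tissue at which no STAT5B peak was called in either genotype. They were chosen from the authors' peak lists by 2 criteria: a STAT5A peak score of at least 27.1, which is the median of the STAT5A list, and no overlap, not even by 1 bp, with a STAT5B peak of wild type or of Stat5a-null tissue. The rule returned 6159 of the 26237 STAT5A peaks (23.5%). They are called the STAT5A-only sites below. The name, like "with STAT5B" and "without STAT5B" below, refers to called peaks that overlap, and a lack of a call does not show a lack of STAT5B. Because both criteria are readouts of these libraries, the height of the sites and their lack of a STAT5B call are descriptions and were not tested.

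The lists come from chromatin immunoprecipitation followed by sequencing (ChIP-seq) on mammary tissue taken on the day the mice gave birth, from animals of a mixed 129SV::FVB/N::C57BL/6 background. Wild type mice (labelled AABB) carried Stat5a and Stat5b. Stat5a-null mice (labelled BB) lacked Stat5a and kept Stat5b. Lists for 3 of the 10 samples were used, STAT5A in wild type, STAT5B in wild type and STAT5B in Stat5a-null tissue, with 1 library each. The other 7 samples, among them STAT5A in Stat5a-null tissue, were not analysed here. The number of animals behind a library is not stated in the labels. With 1 library per group, differences could not be checked against replicates and were not given p-values. All ranges in parentheses after a share or median are 95% intervals for counting error over peaks, which are treated as independent. Neighbouring peaks can share the same nearest STAT5B peak, so these intervals may be too narrow, also where they are said not to meet.

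STAT5A and STAT5B are transcription factors of nearly the same structure. Prolactin, through its receptor and the kinase JAK2, activates both in the secretory cells of the mammary gland, where they move to the nucleus as dimers and bind DNA at palindromic interferon-gamma-activated sequences. STAT5A is the form on which alveolar development and milk production mainly depend in the mouse, and STAT5B can take over part of that task. The tissue is a mixture of cells that includes epithelium, fat and stroma, so a site bound in few cells and a site bound weakly in many cells cannot be told apart.

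The STAT5A-only sites lay at the lower end of the higher-scoring range. Their scores ran from 27.1 to 239.9 with a median of 35 (quartiles 30.6 and 42.1), and only 612 reached 50 and only 15 reached 80. The 6993 STAT5A peaks in the same range with a STAT5B peak had a median of 72 (quartiles 55 and 98.6). Of all STAT5A peaks at or above the threshold 46.8% were STAT5A-only, and of all STAT5A peaks of any score 73.2% had no STAT5B. These shares restate the rule. The remaining higher-scoring peaks held STAT5B in wild type tissue alone (4469), in both genotypes (2401) or in Stat5a-null tissue alone (123).

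The share without STAT5B fell steeply as the STAT5A score rose. In 5 score bins of about equal size it was 96.2% (95.4% to 96.9%) for scores of 27.1 to 33.3, 84.1% for 33.5 to 42.8, 44.4% (42.4% to 46.3%) for 42.9 to 56.9, 8.74% for 57 to 83.5 and 0.493% (0.263% to 0.842%) above. The lowest 2 bins held 2548 and 2212 of the STAT5A-only sites, and the highest bin held 13. Score and STAT5B overlap are therefore closely tied, and the comparisons below are given at like scores where possible.

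**Figure D1:**
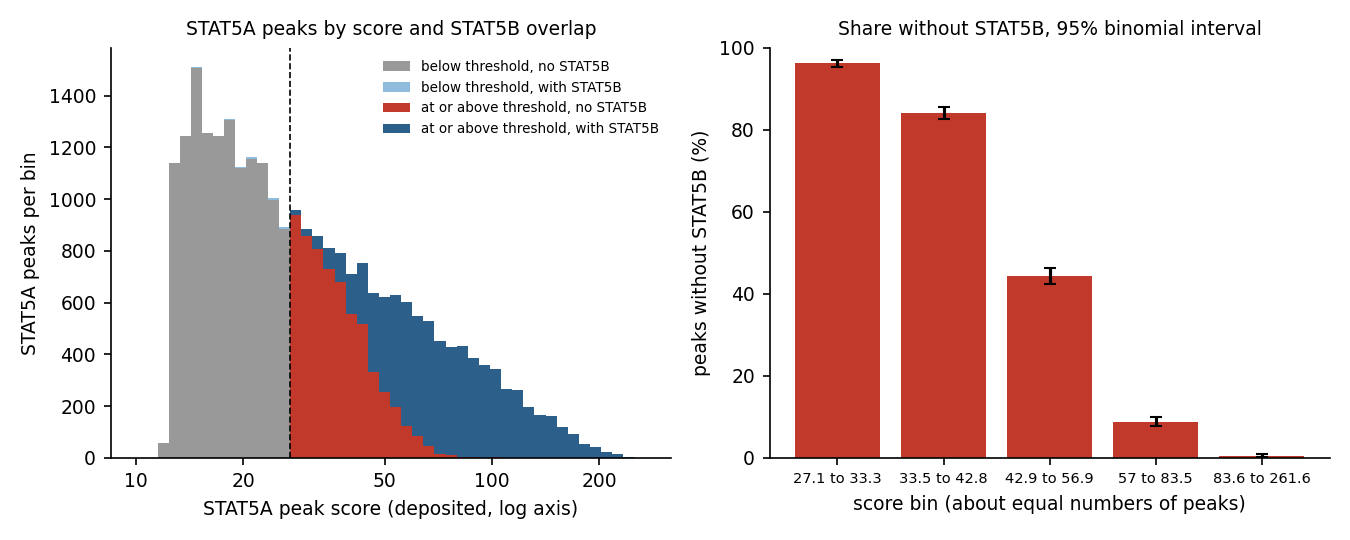
STAT5A peaks by deposited score, stacked by class (left; log score axis, dashed line at the threshold of 27.1), and the percentage of peaks without STAT5B in 5 score bins with 95% binomial intervals (right). The sites without STAT5B crowd just above the threshold, and their share falls from 96.2% in the lowest bin to 0.493% in the highest.

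Every distinct STAT5A score was a whole multiple of 0.171758 within a rounding tolerance of 0.05. If that step is the value of 1 sequence tag, a score of 27.1 stands for 158 tags and carries a counting interval of 23.1 to 31.7. By that measure 1984 of the STAT5A-only sites (32.2%) cannot be separated from the threshold by counting alone, and neither can 2205 of the 13054 lower-scoring peaks without STAT5B. On either side of the threshold, 77 sites had a score of exactly 27.1 and 100 peaks without STAT5B had a score of 27. A site just inside lay on chromosome 1 from 39617425 to 39617700 (mm9), and 1 just below it on chromosome 1 from 43614909 to 43615184.

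The highest-scoring STAT5A-only sites were of different kinds. A pair of peaks on chromosome 11, from 3045078 to 3045353 and from 3045844 to 3046119 (mm9), had scores of 239.9 and 214.7 and ranked 3 and 24 in the whole STAT5A list. The peaks lay 490 bp apart. The nearest wild type STAT5B peak was 247 kb from the first of them and the nearest Stat5a-null STAT5B peak 971 kb. No other STAT5A-only site scored above 108.6, so this pair stands apart from the rest of the sites by its height. Whether sequence repeats near the start of the chromosome move with this signal was not tested.

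The next sites by score lay at varied distances from STAT5B. On chromosome 11 from 5399968 to 5400243 the STAT5A score was 108.6 (counting interval 100.3 to 117.4), and a wild type STAT5B peak lay 430 bp away. Its nearest STAT5A neighbour, at 507 bp, scored 218 and had STAT5B. On chromosome 16 from 96757166 to 96757441 the score was 104.9, with a wild type STAT5B peak at 89 bp and a Stat5a-null STAT5B peak at 148 bp. On chromosome 1 from 135020989 to 135021264 the score was 94.6 with wild type STAT5B at 45 bp, and on chromosome 6 from 133985220 to 133985495 it was 89.8 with wild type STAT5B at 83 bp. These 4 of the 10 highest sites thus missed the overlap by less than 500 bp. The sites on chromosome 4 from 40813136 to 40813411 (101.3) and on chromosome 2 from 109976114 to 109976389 (99.3) lay 2.56 kb and 1.16 kb from wild type STAT5B, and the site on chromosome 18 from 6744291 to 6744566 (100.8) lay 2.89 kb from it. The last of the 10, on the X chromosome from 166413676 to 166413951 (87.6), was farther, at 11.3 kb from wild type and 8339 kb from Stat5a-null STAT5B.

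Such side-by-side calls were about as frequent among all STAT5A-only sites as over the whole STAT5A list, which averages unlike classes. A STAT5B peak that did not overlap lay within 500 bp of 69 placed STAT5A-only sites (1.12%, 0.874% to 1.42%), against 1.06% of all placed STAT5A peaks. The share was 2.61% for higher-scoring peaks with STAT5B and 0.215% (0.143% to 0.310%) for lower-scoring peaks without STAT5B. Weighted to like scores, the share for peaks with STAT5B was 1.68% (0.479% to 2.88%). Of the 100 highest STAT5A-only sites, 13 had such a peak. The share for peaks with STAT5B at scores as high was not computed. Neither this count nor the 4 of the 10 highest sites can therefore be called high or low. The 69 sites fell into 2 kinds. At 46 the STAT5B peak sat on another STAT5A peak, at a median gap of 454 bp. At the other 23 it sat on no STAT5A peak, at a median gap of 84 bp (range 15 to 296 bp). Neighbouring STAT5A peaks never came closer than 287 bp to each other.

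Some high-scoring STAT5A-only sites had no STAT5B peak called nearby. After the pair on chromosome 11, the highest sites with no STAT5B peak of either genotype within 50 kb lay on chromosome 2 from 117888005 to 117888280 (score 86.2), on chromosome 12 from 27021514 to 27021789 (83.6) and on chromosome 15 from 76230474 to 76230749 (79.9). The chromosome 12 site was solitary: its nearest STAT5A neighbour lay 71.98 kb away with a score of 16.5, and its nearest STAT5B peaks 135 kb away. In all, 2893 STAT5A-only sites had no STAT5B peak within 50 kb, and 824 had no STAT5A peak of any kind within that distance. The matching shares were near those of the whole list. STAT5B lay within 50 kb of 52.98% (51.7% to 54.2%) of the sites and of 50.1% of all placed STAT5A peaks. Another STAT5A peak lay within 50 kb of 86.6% and 85.0%. By class, STAT5B lay within 50 kb of 61.8% of higher-scoring peaks with STAT5B and of 42.5% of lower-scoring peaks without it.

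STAT5A-only sites lay farther from STAT5B than peaks with STAT5B lay from the next STAT5B peak, and nearer to it than weaker STAT5A peaks. The median distance from a placed site to the nearest STAT5B peak of either genotype was 42.3 kb (40.4 to 45.3 kb, n = 6153), with quartiles of 10.8 and 153 kb. To wild type STAT5B alone it was 43.1 kb, and to the STAT5B peaks of Stat5a-null tissue, a shorter list, 182 kb. For higher-scoring STAT5A peaks with STAT5B, the nearest other STAT5B peak lay at a median of 27.9 kb (26.1 to 29.4 kb). For lower-scoring peaks without STAT5B it lay at 70.1 kb (67.2 to 72.9 kb). The intervals of the 3 medians did not meet.

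At like STAT5A scores, no difference in closeness to STAT5B was detectable between sites with and without STAT5B of their own. The measure differs in kind between them: it reaches a further STAT5B peak for the former and the first one for the latter. With the lists of both genotypes pooled, an offset call of the other genotype can count as the further peak. Whether the spacing of called peaks moves with this comparison was not tested. A STAT5B peak within 10 kb, other than one overlapping the site, was present for 21.4% of all placed STAT5A peaks. It was present for 1468 STAT5A-only sites, or 23.9% (22.8% to 24.9%), and for 34.5% (33.4% to 35.6%) of the higher-scoring peaks with STAT5B. Weighted to the score bins of the STAT5A-only sites, the latter share was 24.95% (21.3% to 28.6%), and the difference was -1.09 percentage points (-4.91 to 2.72). Within single bins the shares rose together. Among STAT5A-only sites they were 19.7% at scores of 27.1 to 33.3, 23.6% in the second bin, 30.4% in the third and 37.8% at 57 to 83.5. Among peaks with STAT5B they were 21%, 26.3%, 29.5% and 31.8%. In the highest bin the shares were 61.5% (8 of 13 sites, 31.6% to 86.1%) and 41.5%. The STAT5A-only share was thus the lower in the first and second bins and the higher in the others, which the weighted difference averages. The intervals of the 2 classes met in every bin.

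At other distances and for the Stat5a-null list the intervals of the difference also held 0. Within 1 kb the STAT5A-only sites had STAT5B in 3.87% of cases and the weighted peaks with STAT5B in 5.74% (difference -1.87 points, -4.12 to 0.385). Within 50 kb the STAT5A-only sites had STAT5B in 52.98% of cases and the weighted peaks with STAT5B in 54.4% (difference -1.44 points, -6.03 to 3.16). Within 100 kb the shares were 65.8% and 66.1%. For STAT5B of Stat5a-null tissue they were 9.67% and 9.90% within 10 kb (difference -0.230 points, -2.79 to 2.33) and 37.0% and 40.2% within 100 kb (difference -3.20 points, -7.73 to 1.32). Differences of up to about the size of these intervals cannot be seen with the 100 and 418 placed peaks with STAT5B in the lowest 2 bins. The wild type STAT5B peak nearest to a STAT5A-only site within 10 kb was also found in Stat5a-null tissue in 504 of 1460 cases, or 34.5% (32.1% to 37.0%). That share was 34.8% (33.7% to 35.9%) over all wild type STAT5B peaks.

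Close to STAT5B the 2 classes of peaks without STAT5B differed. STAT5A-only sites became rarer with distance, from 238 in the first kilobase to 143 in the fifth and 81 in the tenth. Between 1 and 5 kb there were 180.5 sites per kb and between 5 and 10 kb 101.6, a ratio of 1.78 (1.58 to 1.99). Lower-scoring peaks without STAT5B went the other way, with 134.75 per kb between 1 and 5 kb and 209 between 5 and 10 kb, a ratio of 0.645 (0.580 to 0.716). Their number stepped from 100 in the fourth kilobase and 154 in the fifth to 238 in the sixth. Whether a setting of the peak caller moves with this step was not tested.

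The classes were also compared beyond the step. Among sites more than 5 kb from STAT5B, the median distance was 66.1 kb (61.2 to 69.8 kb) for STAT5A-only sites, 78.8 kb (76.3 to 81.5 kb) for lower-scoring peaks without STAT5B and 51.2 kb (48.7 to 53.8 kb) for peaks with STAT5B. The order of the classes was kept beyond 5 kb and the intervals still did not meet, but this was not at like scores. Among STAT5A-only sites the median beyond 5 kb was 70.4 kb (64.7 to 76.6 kb) at scores of 27.1 to 33.3. It was 44.6 kb (34.8 to 64.8 kb) at scores of 57 to 83.5.

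**Figure D2:**
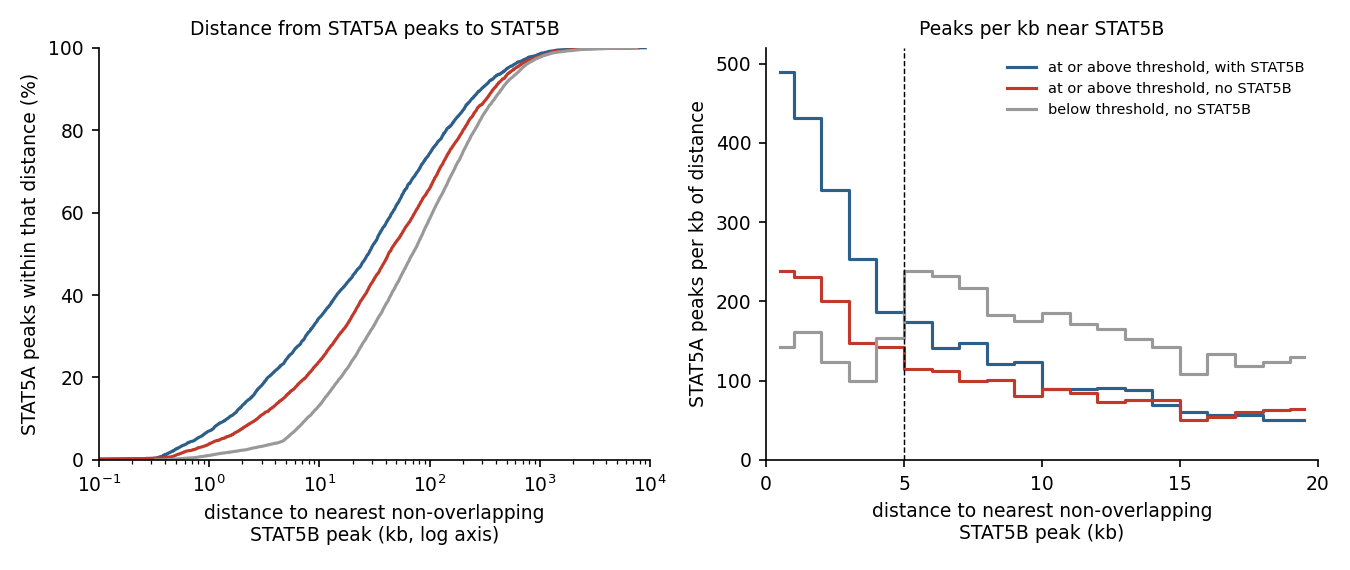
Cumulative percentage of STAT5A peaks by distance to the nearest STAT5B peak that does not overlap them (left, log axis in kb) and number of peaks per kb of distance (right, dashed line at 5 kb), for 3 classes of STAT5A peaks. The sites at or above the threshold without STAT5B lie between the other classes on the left, with a median of 42.3 kb. On the right, lower-scoring peaks drop inside 5 kb, whereas STAT5A-only sites and peaks with STAT5B do not.

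Median scores of STAT5A-only sites were highest beside STAT5B and level beyond 10 kb, though the highest single score (239.9) lay 50 to 500 kb away. The median score was 40.4 (38.5 to 42.9, n = 238) up to 1 kb from STAT5B and 36.4 (35.9 to 36.9, n = 1230) from 1 to 10 kb. It was 34.9 (n = 1792) from 10 to 50 kb, 34.5 (n = 2483) from 50 to 500 kb and 34.9 (n = 410) beyond 500 kb. The ratio of sites per kb at 1 to 5 kb over 5 to 10 kb was 1.57 (1.30 to 1.91) at scores of 27.1 to 33.3. At scores of 57 to 83.5 that ratio was 2.94 (1.71 to 5.23). Whether the step at 5 kb described above moves with these medians was not tested. Where a STAT5A peak with STAT5B lay within 10 kb of a STAT5A-only site, the nearest such peak scored higher in 1357 of 1450 cases, or 93.6% (92.2% to 94.8%). This adds nothing to the choice by score, since a peak with STAT5B outscored a STAT5A-only site in 93.8% of all possible pairs.

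STAT5A-only sites were often close to further STAT5A peaks. Another STAT5A peak lay within 10 kb of 52.7% of all placed STAT5A peaks and of 3514 STAT5A-only sites, or 57.1% (55.9% to 58.4%). The share was 46.2% (45.4% to 47.1%) for lower-scoring peaks without STAT5B and 61.0% (59.9% to 62.2%) for higher-scoring peaks with STAT5B. Weighted to the scores of the STAT5A-only sites, the last share was 53.6%, a difference of 3.55 points (-1.02 to 8.12). Within 10 kb, the nearest neighbour of a STAT5A-only site was itself STAT5A-only in 27.3% of cases, held STAT5B in 31.1% and was lower-scoring without STAT5B in 41.5%. The shares of these classes in the whole list were 23.5%, 26.7% and 49.8%.

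**Figure D3:**
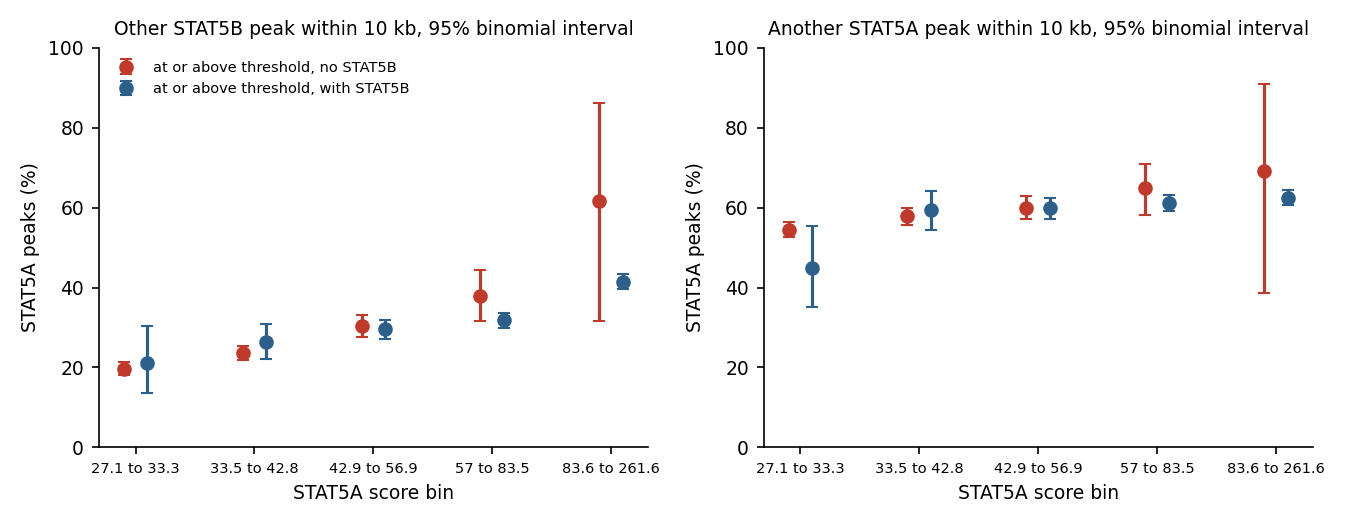
Percentage of STAT5A peaks with another STAT5B peak (left) or another STAT5A peak (right) within 10 kb, in 5 bins of STAT5A score, for peaks without and with STAT5B, with 95% binomial intervals. In each bin the intervals of the 2 classes meet, and both classes rise with score on the left, from 19.7% to 37.8% over the first 4 bins for the sites without STAT5B.

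Runs of STAT5A peaks, in which neighbours are at most 10 kb apart, often mixed the classes. Of the placed STAT5A-only sites 2639 stood alone, 1604 shared a run with at least 1 STAT5A peak that had STAT5B, and 1910 were in runs of 2 or more in which no STAT5A peak had STAT5B. The sites not alone are the 57.1% with another STAT5A peak within 10 kb, against 52.7% of all placed STAT5A peaks. The split of runs by STAT5B was not made for all STAT5A peaks, so it is not read as a trait of these sites. Runs of 5 or more peaks held 6.73% of all placed STAT5A peaks and 485 STAT5A-only sites, or 7.88% (7.22% to 8.58%). The gap that joins peaks sets this value, which was 0.959% with gaps of 5 kb and 29.5% with gaps of 25 kb. The share was 9.09% (8.43% to 9.79%) for higher-scoring peaks with STAT5B and 7.46% after weighting to like scores, a difference of 0.420 points (-1.95 to 2.79). There were 302 such runs, 247 of them with a STAT5A-only site. How many would hold 1 from the share of these sites in the list was not computed, so this count is not read as a trait. No STAT5B peak of either genotype lay inside 56 of the 302 runs, which held 102 STAT5A-only sites. The matching count over all STAT5A peaks was not made.

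The run with the most STAT5A-only sites was also the only run of 5 or more that consisted of them alone. It lay on chromosome 6 from 100273350 to 100286855 (mm9, 13.5 kb) and held 6 peaks with scores of 33.5, 52.4, 29, 33.8, 44.5 and 37.4 in order of position. The second peak was the highest and lay 0.708 kb from the first. All 6 exceeded the threshold, and the score of the third lay within the counting interval of the threshold. The nearest wild type STAT5B peaks were 326 kb to the left and 1195 kb to the right of the run, and the nearest Stat5a-null peaks 326 kb and 3016 kb.

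The 2 runs next in number of STAT5A-only sites held 5 each. On chromosome 11 from 57467007 to 57510780 (43.8 kb) there were 12 STAT5A peaks. Among them were 5 STAT5A-only sites of 37.6, 31.4, 35.9, 54.1 and 33, 5 lower-scoring peaks, and 2 peaks with wild type STAT5B that scored 63.7 and 53.2. The highest STAT5A-only site of this run therefore scored slightly above 1 of the peaks with STAT5B, by less than their counting error. On chromosome 1 from 133937031 to 133956156 (19.1 kb) there were 7 peaks, 5 of them STAT5A-only with scores from 30.2 to 33.1, close to the threshold, and no STAT5B peak. A further run without STAT5B, on chromosome 4 from 11294577 to 11332455 (37.9 kb), held 4 STAT5A-only sites with scores of 34.9, 39.3, 51.5 and 35.7, and its nearest wild type STAT5B peak lay 14.5 kb to the right.

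**Figure D4:**
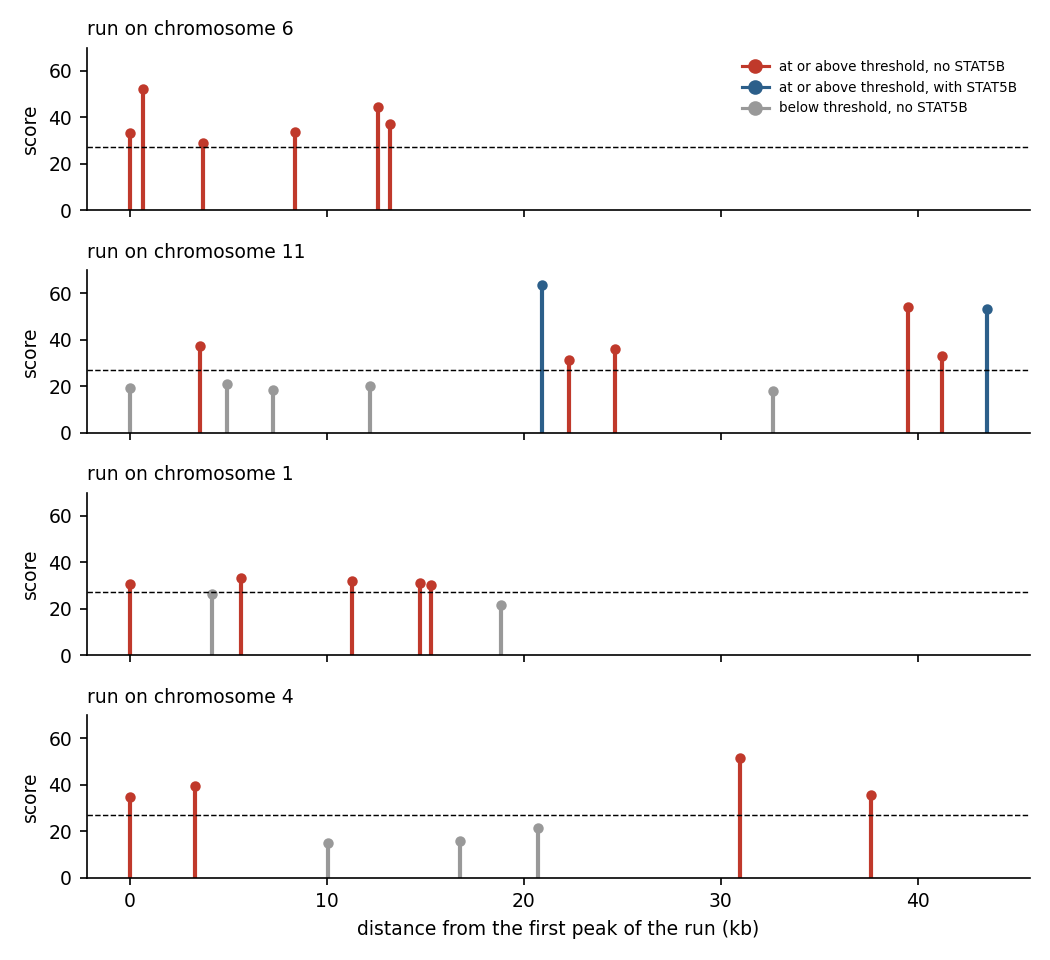
Scores of the STAT5A peaks in 4 runs against the distance from the first peak of each run (kb), coloured by class, with a dashed line at the threshold. The run on chromosome 6 consists of 6 sites without STAT5B, the run on chromosome 11 mixes them with 2 peaks that had STAT5B, and the runs on chromosomes 1 and 4 hold no peak with STAT5B.

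Stretches of chromosome between STAT5B peaks differed in how many STAT5A-only sites they held. They hold no STAT5B peak by construction, and the STAT5B lists (6976 peaks in wild type, 2578 in Stat5a-null tissue) are shorter than the STAT5A list, so a lack of called peaks does not show a lack of STAT5B. Between consecutive STAT5B peaks of either genotype, 3152 stretches held at least 1 STAT5A-only site, of which 1666 held 1 and 182 held 5 or more. The stretches named here were chosen after their values were seen. The run on chromosome 6 was part of the stretch with the most sites, 1.54 Mb from 99946936 to 101481978. It held 17 STAT5A-only sites among 46 STAT5A peaks, with a highest score of 52.4. A stretch of 2.58 Mb on chromosome 5 from 73270235 to 75854405 held 14 (highest score 52.6), and 0.909 Mb on chromosome 7 from 87000201 to 87908927 held 13 (highest score 46). The density in these stretches was 11.1, 5.42 and 14.3 sites per Mb. A stretch of 0.605 Mb on chromosome 4 from 134801280 to 135406156 held fewer sites, 10, but was denser, at 16.5 per Mb. Some other stretches with many sites were longer and less dense, such as 5.76 Mb of the X chromosome from 11967313 to 17727856 with 12 sites (2.08 per Mb). The median was 2.38 per Mb over the autosomes, while the X as a whole had 0.834 per Mb, below the density of this stretch.

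In windows of 1 Mb, STAT5A-only sites were found in 1784 of 2629 (67.9%), and a STAT5B peak in 1736. The share of windows with any STAT5A peak was not computed, so 67.9% is not read as a trait of these sites. The most STAT5A-only sites in any window was 17. Such a count was reached on chromosome 19 from 34000001 to 35000000, beside 16 higher-scoring peaks with STAT5B, and on chromosome 7 from 87000001 to 88000000, beside 3. In 265 windows there were STAT5A-only sites and no STAT5B peak, with 492 sites in all (8.02%). This share was not computed over all STAT5A peaks, so it cannot be called high or low. Across the 2629 windows, the number of STAT5A-only sites followed that of higher-scoring peaks with STAT5B (Spearman's rho 0.71, Pearson's r 0.65) and that of lower-scoring peaks without STAT5B (rho 0.75, r 0.69). These are descriptions across windows of 1 library, which share its depth and the mappability of each window.

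By chromosome, STAT5A-only sites varied 1.86 times in density between autosomes and were sparse on the X chromosome. Chromosome 14 had the fewest, at 1.84 per Mb, and chromosome 19 the most, at 3.42, around an autosomal median of 2.38. The X had 0.834 per Mb, or 0.350 times the autosomal median. Higher-scoring peaks with STAT5B had 0.492 per Mb on the X, or 0.178 times their autosomal median. The X held 2.05% of all placed STAT5A peaks, 139 STAT5A-only sites (2.26%, 1.90% to 2.66%) and 1.17% (0.935% to 1.45%) of the higher-scoring peaks with STAT5B. Of the higher-scoring STAT5A peaks on the X, 62.9% (56.2% to 69.3%) were STAT5A-only, against 44.0% to 49.7% on single autosomes. At like scores this difference was not detectable: weighted to the scores of the STAT5A-only sites, the X held 2.93% of peaks with STAT5B, a difference of -0.675 points (-2.53 to 1.17). That value rests on 5 of 100 peaks in the lowest score bin (5%, 1.64% to 11.3%). Without this bin the direction turned, with 2.11% of STAT5A-only sites and 1.48% of peaks with STAT5B on the X, a difference of 0.632 points (-0.194 to 1.46).

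**Figure D5:**
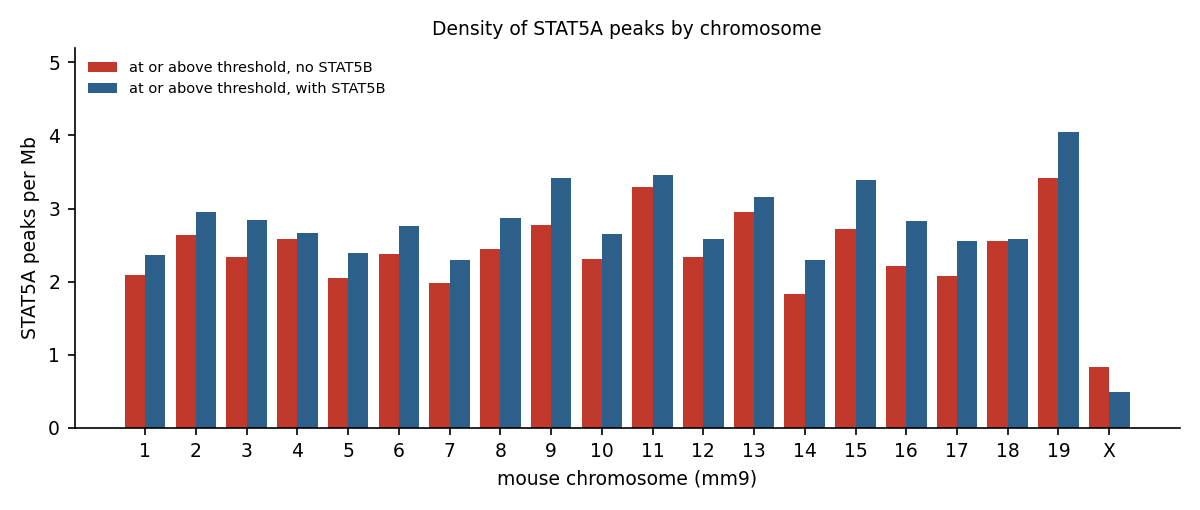
STAT5A peaks per Mb on each mouse chromosome (mm9), for peaks at or above the threshold without and with STAT5B. Peaks with STAT5B are denser on every autosome, while on the X chromosome sites without STAT5B are denser, at 0.834 against 0.492 per Mb.

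Genes near the sites, the share of sites at promoters and the sequence under them, including the STAT5 palindrome, were not analysed here, because the reference tables at hand are of the GRCm38 build and the peaks of mm9. Whether the STAT5A antibody also recognises other proteins at these sites was not tested.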

How the data were processed

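ChIP-seq peak lists of 3 of the 10 samples were used. Groups follow the sample titles, and the genotypes behind them follow the series' design text. Per the submitters' processing notes, CASAVA, BWA and HOMER were used on the mm9 build. Their versions and the settings of the peak calls are not stated. The deposited lists hold a position and 1 signal value per peak, the authors' own, whose scale is unnamed (the score). Scores were used within the STAT5A list only. Total reads are unknown.

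Peak positions were read as 0-based and are printed 1-based. Overlap meant at least 1 bp, and distance is the number of bases between peaks. The 6 STAT5A-only sites on unplaced sequence were left out of distances, runs and densities (chromosome lengths from GenomeInfoDb 1.38.1). Shares have exact Clopper-Pearson 95% intervals, and medians have exact order-statistic intervals. Shares of peaks with STAT5B were weighted over 5 score bins to the STAT5A-only sites, with normal intervals. No test between groups was made. Calculations used scipy 1.17.1, pandas 2.3.3 and numpy 2.4.6 in Python 3.11.15, with plots by matplotlib 3.10.9. Overlaps and distances were tested on simulated data, and bedtools 2.31.1 gave the same 6159 sites.

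The sites and comparisons were chosen with earlier results of these data known. Peaks named are the 10 highest-scoring sites, the 5 highest with no STAT5B within 50 kb, sites at the threshold, and the 3 runs with the most sites; examples are printed. The solitary sites, the stretches and the run on chromosome 4 were added after values were seen. Planned motif, base composition, gene location and gene list results were not run.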

Additional observations from a re-analysis of the deposited data

How the results depend on the processing

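Of 19 alternatives to 6 values, 13 stayed within the counting interval of the value (or within 1.5 times a count) and 6 moved. The number of sites was 6187 when the overlap had to cover 50% of each peak, 6209 with centres within 100 bp, 6090 when peaks within 500 bp counted as shared and 6282 without the Stat5a-null list. With a score at or above the upper quartile it was 668, by construction, and the median distance to STAT5B was 26.7 kb. For the 4175 sites above the counting interval of the threshold, which were set after seeing the data, that median was 39.3 kb. The share in runs of 5 or more was 0.959% with gaps of 5 kb and 29.5% with gaps of 25 kb. The share of peaks with STAT5B that had another STAT5B peak within 10 kb was 24.1% with 10 score bins and 34.5% without weighting by score, both added after seeing the data. The difference in X share at like scores turned from -0.675 to 0.632 points without the lowest score bin, also added later, with 0 inside both intervals. Limiting chromosomes to the autosomes gives no share for the X. The alternatives for motifs, base composition, gene location and gene lists were not run. No paired analysis was possible because each group has 1 library, and for the same reason no replicate could be left out.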
